A study of Mus musculus with 9 samples.

Results

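The genes that build and mark midbrain dopaminergic neurons were followed in the embryonic mouse midbrain after deletion of Gpr161 with Wnt1-Cre. The set holds 9 genes, matched by gene symbol. Of these, 8 had a row among the 27360 rows of the expression table (Th, Ddc, Slc18a2, Slc6a3, Nr4a2, Pitx3, Lmx1a and Lmx1b), and all 8 passed the filter on low values and stood among the 14029 genes tested. Aldh1a1 was not analysed here. Poly-A selected RNA of midbrain tissue at E13.5 was sequenced from 9 libraries on a C57BL/6 background, 3 for each of 3 genotypes: the floxed control (Gpr161 f/f, without Cre), the Cre control (Gpr161 f/+;Wnt1-Cre) and the conditional knockout (cKO, Gpr161 f/f;Wnt1-Cre). All 9 libraries therefore carry at least 1 floxed Gpr161 allele, and the Cre control and the cKO share the Wnt1-Cre transgene. This driver recombines first in dorsal midbrain neuroectoderm and in neural crest, and reporter staining in the study showed it spread over much of the midbrain and hindbrain before the stage sampled. Which of the dopaminergic cells had recombined was not tested. The labels number the samples within a genotype but do not say whether each is 1 fetus, so p-values measure the spread between these samples.

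Midbrain dopaminergic neurons arise from the ventral floor plate, where Lmx1a and Lmx1b act in the progenitors under Shh and Wnt signals. As progenitors leave the cell cycle, the nuclear receptor Nr4a2 and then the homeodomain factor Pitx3 come on, and the cells gain the machinery of dopamine: Th and Ddc for synthesis, Slc18a2 for loading into vesicles and Slc6a3 for reuptake. Gpr161 is a ciliary receptor that holds Shh signaling down, and the comparison asks how these genes stand in the midbrain when it is deleted in the Wnt1 lineage.

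The values are log2 expression values that the authors had normalized between libraries, and the spread shrinks at low expression, so that fold changes of weak genes are compressed. Read counts were not used here, so depth is unknown and no interval from counts can be given. The linear values summed to between 26609900 and 27496600 per library. Gpr161 itself averaged 11.77 ± 0.030 (log2, SD, n = 3) in floxed controls, 11.88 ± 0.096 in Cre controls and 11.88 ± 0.123 in the cKO, and the cKO differed from the floxed control by 0.11 (limma adjusted p = 0.223). That value covers the whole gene and does not separate its exons, so it checks no genotype label, and cKO below means the libraries labelled as such. Wnt1, which the Cre transgene carries, averaged 9.19 without the transgene, 10.94 in the Cre control and 10.65 in the cKO (log2). The summed log2 level of 8 midbrain identity genes, among them Otx2, En1 and En2, lay between 13.96 and 14.16 in the 9 libraries, that of 4 forebrain genes between 6.79 and 7.96, and that of 6 hindbrain genes between 8.46 and 9.29. Single midbrain identity genes differed: Pax7 (-0.48), Pax3 (-0.375) and Gata3 (-0.31) were lower in cKO versus the floxed control (limma adjusted p = 0.00595, 0.0128 and 0.0119), as 18.8% of all genes were. Gata2 was higher by 0.24 versus the floxed and 0.26 versus the Cre control (limma adjusted p = 0.00525 and 0.0177), where 19.5% and 4.86% of all genes were. The Gata2 call versus the Cre control was lost in 3 of 9 fits that left out 1 library. Versus the floxed control, the call of Pax3 was lost in 2 of 9, and those of Pax7, Gata3 and Gata2 in none. No other gene of this list had a limma adjusted p under 0.05 in these comparisons.

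The promoters of Th, Pitx3 and Slc6a3 are shown because these were the members whose cKO values lay below all 6 controls. Each is the 250 bases upstream of a start of the gene in the RefSeq table for GRCm38.p6, written 5′ to 3′ on the gene's own strand, with matches to the searched motifs in capitals. For Th this RefSeq start lies inside the longer GENCODE span of the gene given below, not at its edge. The Th window is chr7:142899996-142900245 on the minus strand, the Pitx3 window chr19:46148326-46148575 on the minus strand and the Slc6a3 window chr13:73536497-73536746 on the plus strand.
Th: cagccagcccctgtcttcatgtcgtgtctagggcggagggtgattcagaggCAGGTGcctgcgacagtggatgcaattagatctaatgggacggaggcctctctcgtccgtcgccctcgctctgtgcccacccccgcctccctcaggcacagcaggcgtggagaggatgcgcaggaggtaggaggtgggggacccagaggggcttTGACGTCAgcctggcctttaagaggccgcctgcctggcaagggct
Pitx3: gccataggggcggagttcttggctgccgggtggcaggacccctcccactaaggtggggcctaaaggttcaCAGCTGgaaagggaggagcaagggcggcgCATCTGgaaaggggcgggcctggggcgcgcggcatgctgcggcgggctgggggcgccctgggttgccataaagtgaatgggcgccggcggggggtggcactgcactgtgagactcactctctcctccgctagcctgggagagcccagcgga
Slc6a3: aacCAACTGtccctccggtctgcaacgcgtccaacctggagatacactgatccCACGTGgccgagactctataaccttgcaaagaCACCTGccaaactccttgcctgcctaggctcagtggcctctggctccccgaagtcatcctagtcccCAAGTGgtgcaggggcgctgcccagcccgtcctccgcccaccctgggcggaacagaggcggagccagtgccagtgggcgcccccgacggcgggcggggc
Capitals mark the cAMP response element TGACGTCA in Th, from 45 to 38 bases upstream of the start, and E-boxes (CANNTG) in all 3 genes. The motifs were searched on both strands. E-boxes occur in 66.22% of all 32851 windows of this length, and the cAMP response element in 1.55%. The bicoid-type homeodomain site TAATCC, present in 6.25% of windows, the TATA box TATAAA (12.37%), the Nr4a monomer site AAAGGTCA (1.34%) and the Gli site GACCACCCA (0.23%) had no match in these windows. The 3 windows were rich in GC, with 64.4% in Th, 68.8% in Pitx3 and 66.0% in Slc6a3, against a median of 52.4% over all windows.

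Against the floxed control, 4 of the 8 dopaminergic genes were lower in the cKO (Pitx3, Th, Slc6a3 and Slc18a2) and none was higher. Over all genes tested, 18.8% were lower in this comparison. Against the Cre control, 3 of 8 were lower (Th, Pitx3 and Slc6a3), where 4.85% of all genes were, and none was higher. Nr4a2, Ddc, Lmx1a and Lmx1b did not pass in either comparison. Over all 8 members, the log2 fold change had a median of -0.27 versus the floxed and -0.31 versus the Cre control, beside 0.01 over all genes in both. No member reached the 1.5-fold change used for a DEG, the largest decrease being that of Pitx3 at -0.52 on the log2 scale, while 1.58% and 0.228% of all genes were lower DEGs versus the floxed and the Cre control. Both comparisons use the same 3 cKO libraries. In bulk tissue, fewer cells of a type and less RNA per cell cannot be told apart.

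**Figure D1:**
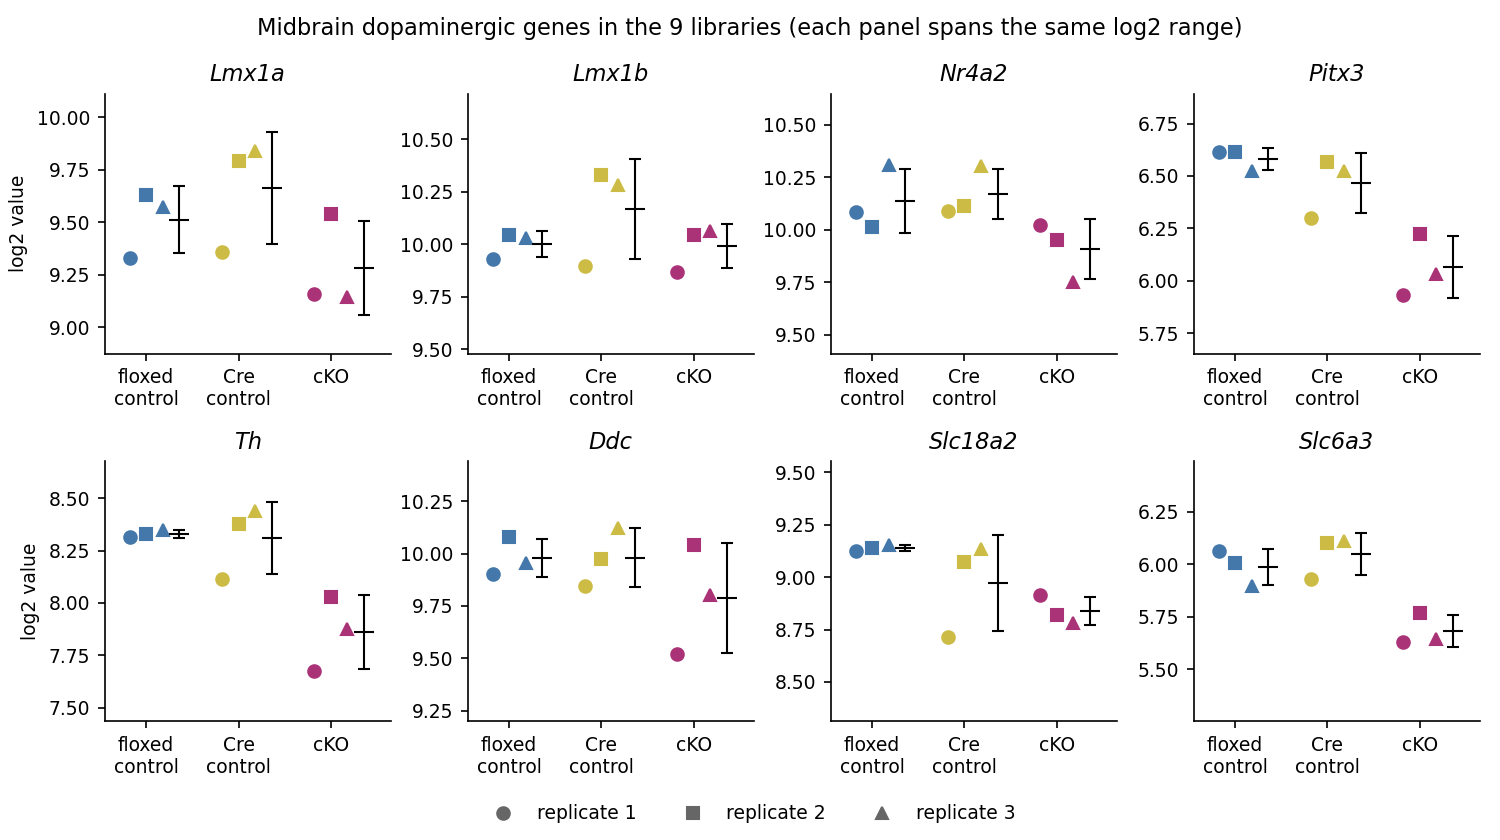
Log2 expression value (vertical axis) of the 8 dopaminergic genes in each library, with 1 panel per gene, 1 symbol per replicate, and the mean and SD of the 3 libraries of a genotype beside them. Th, Pitx3 and Slc6a3 have all 3 cKO values below all 6 control values, whereas the genotypes overlap for Lmx1a, Lmx1b and Ddc.

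Lmx1a, a LIM homeodomain factor of the floor plate and of dopaminergic progenitors (chromosome 1, 167689237 to 167848741, plus strand; this and the positions below are from GENCODE for GRCm38), had log2 values of 9.33, 9.63 and 9.58 in the floxed control, 9.36, 9.79 and 9.84 in the Cre control and 9.16, 9.54 and 9.15 in the cKO. cKO replicates 1 and 3 lay below every control, and cKO replicate 2 lay among them. The log2 fold change was -0.23 versus the floxed control (95% interval -0.55 to 0.09, limma adjusted p = 0.230) and -0.38 versus the Cre control (-0.70 to -0.06, limma adjusted p = 0.114). Without Cre control replicate 1, the second value was -0.54 (limma adjusted p = 0.0159). Of the 9 fits that left out 1 library, only this 1 passed versus the Cre control. Their log2 fold changes ran from -0.54 to -0.29, with limma adjusted p up to 0.312.

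Lmx1b, its close relative, which also acts at the isthmus and in serotonergic neurons (chromosome 2, 33560965 to 33640511, minus strand), had log2 values of 9.93, 10.04 and 10.03 in the floxed control, 9.89, 10.33 and 10.28 in the Cre control and 9.87, 10.04 and 10.06 in the cKO. The cKO and the floxed control covered similar ranges, and Cre control replicates 2 and 3 stood above both. Its log2 fold change in cKO was -0.01 versus the floxed control (95% interval -0.24 to 0.22, limma adjusted p = 0.950) and -0.18 versus the Cre control (-0.41 to 0.05, limma adjusted p = 0.279). Without Cre control replicate 1, the log2 fold change versus the Cre control was -0.32 and passed (limma adjusted p = 0.0100). It was the only 1 of 9 fits leaving out 1 library to pass, and values reached -0.10 (limma adjusted p up to 0.598).

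Nr4a2 (Nurr1), the orphan nuclear receptor required for the dopaminergic phenotype (chromosome 2, 57106830 to 57124003, minus strand), had log2 values of 10.09, 10.01 and 10.31 in the floxed control, 10.09, 10.11 and 10.31 in the Cre control and 10.02, 9.95 and 9.75 in the cKO. All 3 cKO values were below the Cre control, but cKO replicate 1 lay just above floxed control replicate 2. The change was -0.23 versus the floxed control (95% interval -0.44 to -0.02, limma adjusted p = 0.0817) and -0.26 versus the Cre control (-0.47 to -0.05, limma adjusted p = 0.103), so neither passed.

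Pitx3, which comes on after Nr4a2 in the maturation of dopaminergic neurons, lies on chromosome 19 (46135685 to 46148326, minus strand). Its log2 values were 6.61, 6.61 and 6.52 in the floxed control, 6.30, 6.57 and 6.53 in the Cre control and 5.93, 6.23 and 6.04 in the cKO. Every cKO value was below every control, with a gap of 0.08 between the highest cKO library and the lowest control, which was Cre control replicate 1. Pitx3 fell by 0.52 on the log2 scale versus the floxed control (95% interval -0.72 to -0.32, 30.2% lower, limma adjusted p = 0.0021). Compared with the Cre control it fell by 0.40 (-0.60 to -0.20, 24.2% lower, limma adjusted p = 0.0265).

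Th, tyrosine hydroxylase, the rate-limiting enzyme of catecholamine synthesis (chromosome 7, 142892752 to 142931128, minus strand), had log2 values of 8.31, 8.33 and 8.35 in the floxed control, 8.11, 8.38 and 8.44 in the Cre control and 7.68, 8.03 and 7.88 in the cKO. The floxed control was tight, Cre control replicate 1 was the lowest control, and all 3 cKO values lay under it. Th fell by 0.47 versus the floxed control (SE 0.101, 95% interval -0.69 to -0.25, 27.8% lower, limma adjusted p = 0.00557). Versus the Cre control the decrease was 0.45 (-0.67 to -0.22, 26.7% lower, limma adjusted p = 0.0273).

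Ddc, which converts L-DOPA to dopamine and also serves serotonergic neurons (chromosome 11, 11814101 to 11898144, minus strand), had log2 values of 9.90, 10.08 and 9.95 in the floxed control, 9.84, 9.98 and 10.12 in the Cre control and 9.52, 10.04 and 9.80 in the cKO. The cKO libraries spread more widely than either control, and cKO replicate 2 lay within both. The log2 fold change was -0.19 against each control, with a 95% interval of -0.46 to 0.07 in both cases (adjusted p = 0.226 against the floxed and 0.302 versus the Cre control, by limma). Leaving out cKO replicate 2 gave -0.32 versus the floxed control (limma adjusted p = 0.0455), the only 1 of 9 such fits to pass. Across these fits the log2 fold change ran from -0.32 to -0.06, with limma adjusted p up to 0.690. Versus the Cre control 0 of 9 passed in limma.

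Slc18a2, the vesicular monoamine transporter that dopaminergic and serotonergic neurons share (chromosome 19, 59260896 to 59296012, plus strand), had log2 values of 9.13, 9.14 and 9.16 in the floxed control, 8.71, 9.07 and 9.13 in the Cre control and 8.91, 8.82 and 8.78 in the cKO. The cKO lay below all floxed controls, but Cre control replicate 1 was the lowest of the 9 libraries. Slc18a2 fell by 0.30 versus the floxed control (95% interval -0.51 to -0.09, 18.8% lower, limma adjusted p = 0.0316). This call was lost when any 1 of the floxed control or cKO libraries was left out (adjusted p from 0.0501 to 0.0928 by limma). Versus the Cre control the change was -0.13 (-0.35 to 0.08, limma adjusted p = 0.380), and -0.26 without Cre control replicate 1 (limma adjusted p = 0.0104). That fit was the only 1 of 9 leaving out 1 library to pass versus the Cre control (limma adjusted p up to 0.784).

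Slc6a3, the plasma membrane dopamine transporter and a selective marker of dopaminergic neurons (chromosome 13, 73536747 to 73578672, plus strand), had log2 values of 6.06, 6.01 and 5.90 in the floxed control, 5.93, 6.10 and 6.11 in the Cre control and 5.63, 5.77 and 5.64 in the cKO. The cKO did not overlap the controls, the gap being 0.13. Slc6a3 fell by 0.31 versus the floxed control (19.2% lower, limma adjusted p = 0.00749). It fell by 0.37 versus the Cre control (22.5% lower, limma adjusted p = 0.0174).

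Across the set, 3 of 8 genes had all cKO values below all 6 controls, compared with 11.5% of all genes tested. With Slc18a2, 4 of 8 lay below all floxed controls (27.3% of all genes), and with Nr4a2, 4 of 8 below all Cre controls (13.7%). The calls versus the Cre control rested on few libraries: without Cre control replicate 1, 6 of the 8 genes were lower, and without Cre control replicate 2, Cre control replicate 3 or cKO replicate 1 none was (Th from 0.0739 to 0.102, Pitx3 from 0.0739 to 0.107 and Slc6a3 from 0.0505 to 0.0716, adjusted p by limma). Without cKO replicate 3, only Slc6a3 passed. Against the floxed control, Th, Pitx3 and Slc6a3 passed in all 9 fits that left out 1 library. Between the 2 controls, 0 of the 8 genes passed in limma and 0 had an unadjusted p under 0.05, while 0.057% of all genes passed. The log2 fold changes of Cre control against floxed control ran from -0.17 in Slc18a2 to 0.17 in Lmx1b.

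**Figure D2:**
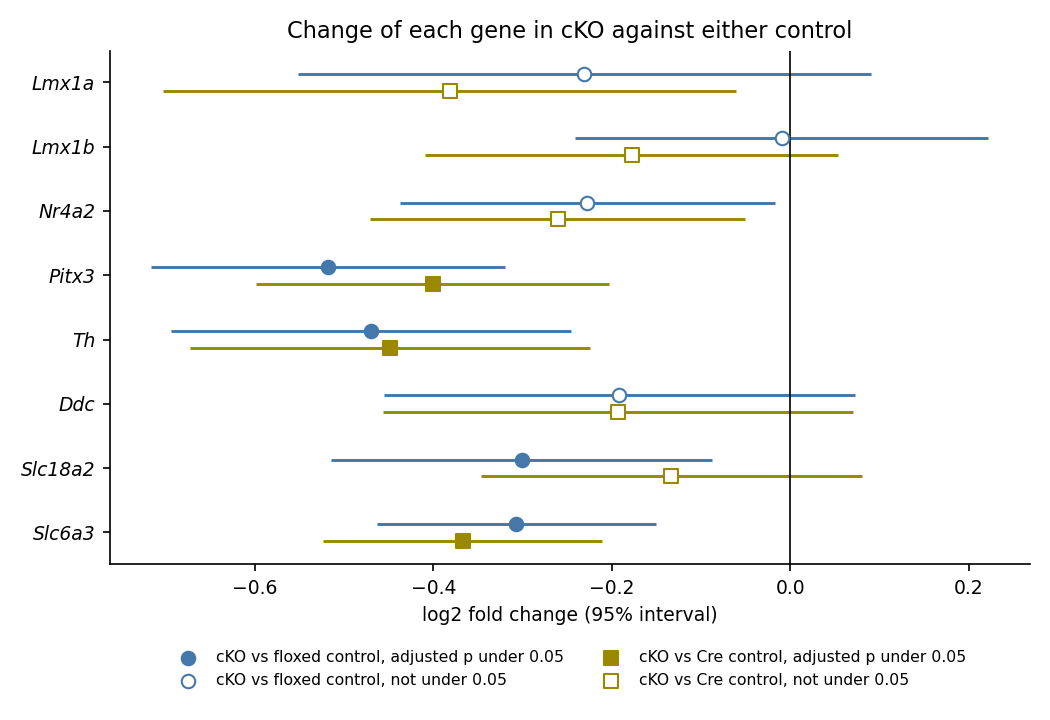
Log2 fold change of each gene in cKO (horizontal axis, with 95% intervals from limma) versus the floxed control (circles) and the Cre control (squares), where filled symbols have an adjusted p under 0.05. Th, Pitx3 and Slc6a3 are filled in both comparisons, Slc18a2 only versus the floxed control, and every point estimate lies at or below 0.

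Levels between genes were compared per kilobase of the longest coding transcript in the annotation. In the floxed control Ddc was the highest, at 8.97 ± 0.091 on the log2 per kilobase scale (SD, n = 3), followed by Nr4a2 at 8.30 ± 0.154, Lmx1a at 7.77 ± 0.159 and Lmx1b at 7.74 ± 0.062. Th stood at 7.37 ± 0.019, Slc18a2 at 7.22 ± 0.014, Pitx3 at 6.12 ± 0.052 and Slc6a3 at 4.20 ± 0.085. The means of Lmx1a and Lmx1b differed by less than the SD of either. In the Cre control Th averaged 7.35 ± 0.173 and Slc18a2 7.05 ± 0.228. The genes were read in the same libraries, so these SDs do not give the spread of a difference between genes, which was not tested. Slc6a3, the transporter for reuptake, had the lowest mean of the members.

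The members also varied between libraries of 1 genotype. With the genotype means removed, the values of Th and Pitx3 correlated at r = 0.91 over the 9 libraries, those of Slc6a3 and Pitx3 at 0.90 and those of Th and Ddc at 0.90. Nr4a2 did not follow this pattern, at r = 0.14 with Th, -0.03 with Ddc and -0.03 with Pitx3. These values describe 9 libraries that share a dissection, a normalization and 3 genotypes. Without removal of the genotype means, the genes whose values ran closest to Th were Ptprt, Dnajb14, Tmod2, Cbln4 and Cacna2d1 (r from 0.98 to 0.99), and Pitx3 ranked 18th of 14028 genes at 0.97. The genes closest to Lmx1a were Slit2, Ttc6, Masp1, Corin and Foxa1 (r from 0.92 to 0.97). Slit2, a floor plate guidance cue, Corin, a floor plate protease, and Foxa1, a floor plate forkhead factor, belong to the floor plate list described next.

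Beyond the members, a wider list of 21 genes of dopaminergic neurons was examined, of which 19 were tested (Chrnb3 and Vip were under the filter). Of the 19, 9 were lower in cKO versus floxed control (18.8% of all genes were) and 3 versus Cre control (4.85%), and none was higher. The median log2 fold change was -0.16 and -0.15. Lmo3, a LIM-only transcriptional regulator, had log2 values of 11.18, 11.12 and 10.97 in the floxed control, 10.78, 10.85 and 11.12 in the Cre control and 10.33, 10.44 and 10.51 in the cKO, which lay below all controls. It fell by 0.66 versus the floxed control (limma adjusted p = 8.0e-04) and by 0.49 versus the Cre control (limma adjusted p = 0.0152). The neuropeptide gene Cck fell by 0.25 and 0.32 (limma adjusted p = 0.0281 and 0.0309), and the neurokinin receptor gene Tacr3 by 0.29 and 0.31 (limma adjusted p = 0.00362 and 0.0151). Versus the Cre control, all 3 calls were lost without cKO replicate 1, that of Cck also without cKO replicate 2, Cre control replicate 3 or floxed control replicate 3, and 9 of the 19 genes were lower without Cre control replicate 1. Versus the floxed control, leaving out 1 library left 7 to 11 of 19 passing, at most 1 of them higher, and Lmo3 and Tacr3 passed in all 9 such fits and Cck in 5. The GDNF receptor Ret, the potassium channel Kcnj6 (Girk2), the vesicular protein Slc10a4, the nicotinic subunit Chrna6, Sncg and Klhl1 fell versus the floxed control by 0.25 to 0.55. Among these 6, the call of Ret was lost in 4 of 9 fits that left out 1 library, and no other was lost. Against the Cre control these 6 had log2 fold changes between -0.36 and -0.13 and did not pass. The engrailed genes En1 and En2, needed for survival of dopaminergic neurons, had log2 fold changes of 0.08 and 0.17 versus the floxed control and -0.05 and -0.06 versus the Cre control, and did not pass. Dlk1, Drd2, Sox6, Calb1 and Satb1 did not pass either, with log2 fold changes between -0.16 and -0.03 versus the floxed control. Ndnf, a secreted neurotrophic factor gene, had the highest log2 fold changes in the list, 0.27 and 0.40, and did not pass (limma adjusted p = 0.187 and 0.123).

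The genes that supply the tetrahydrobiopterin cofactor of Th or break dopamine down were not among those that fell. Of 8 tested, 2 were higher in cKO versus floxed control, 1 was higher versus Cre control and none was lower, where 19.5% and 4.86% of all genes were higher. Spr, sepiapterin reductase, which completes the synthesis of the cofactor, had log2 values of 9.46, 9.51 and 9.44 in the floxed control, 9.74, 9.63 and 9.58 in the Cre control and 9.96, 9.89 and 9.79 in the cKO. The cKO values were above all controls. Spr rose by 0.41 versus the floxed control (limma adjusted p = 9.5e-04) and by 0.23 versus the Cre control (limma adjusted p = 0.0380), the second call being lost in 6 of 9 fits that left out 1 library and the first in none. Qdpr, which regenerates the cofactor, rose by 0.14 versus the floxed control (limma adjusted p = 0.0228) and had a log2 fold change of 0.13 versus the Cre control (limma adjusted p = 0.0652). Its call versus the floxed control was lost in 4 of 9 fits that left out 1 library. Gch1, the first enzyme of that pathway, had log2 fold changes of -0.13 and -0.12 (limma adjusted p = 0.0952 and 0.190). The breakdown enzymes Maoa and Maob lay at 0.08 and 0.16 versus the floxed control and did not pass.

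Of 14 floor plate and progenitor genes, 2 were higher in cKO versus the floxed control and none was lower, where 19.5% of all genes were higher. Msx1, a progenitor factor downstream of Lmx1a that is also expressed in the dorsal midline, rose by 0.41 (limma adjusted p = 0.0460), and the proneural gene Neurog2 rose by 0.37 (limma adjusted p = 0.00391). The call of Msx1 was lost in 6 of the 9 fits that left out 1 library (limma adjusted p up to 0.150), and that of Neurog2 in none. Against the Cre control 0 of 14 passed in limma, with 2 higher and 3 lower at an unadjusted p under 0.05. The floor plate determinant Foxa2 had log2 fold changes of 0.32 and 0.24 (limma adjusted p = 0.0995 and 0.292), the ligand Shh of 0.09 and -0.09 (limma adjusted p = 0.608 and 0.676), and Corin of -0.05 and -0.25 (limma adjusted p = 0.724 and 0.149). The list medians were 0.10 versus the floxed control and -0.10 versus the Cre control.

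**Figure D3:**
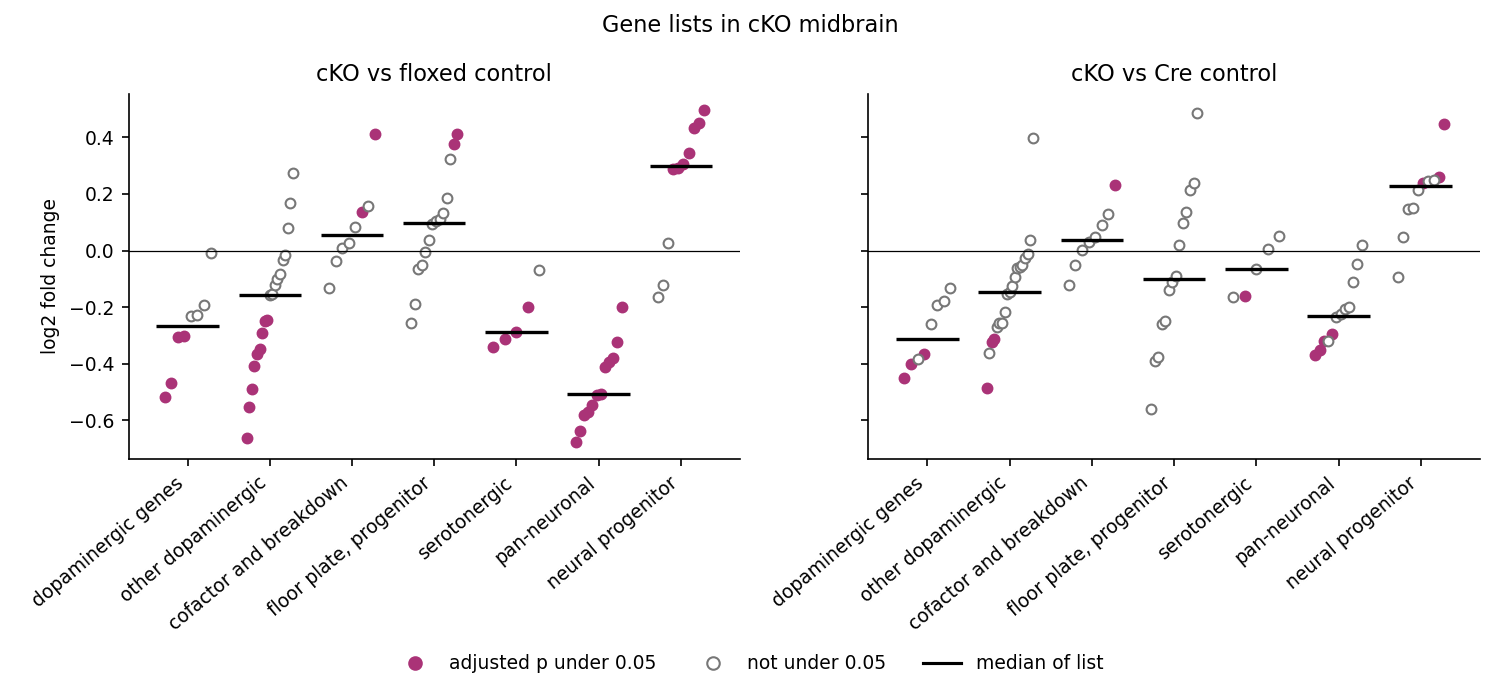
Log2 fold changes in cKO (vertical axis) of the genes of 7 lists versus the floxed control (left) and the Cre control (right), where each point is a gene, filled points have an adjusted p under 0.05 and the bar is the median of the list. The dopaminergic genes and the wider dopaminergic list lie mostly below 0, as the pan-neuronal genes do, while the neural progenitor genes lie mostly above 0.

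Genes of neurons in general were lower in the cKO as well. All 12 pan-neuronal genes were lower in cKO versus the floxed control (18.8% of all genes were), with a median of -0.51, and 4 of 12 (Stmn2, Snap25, Dcx and Gap43) versus the Cre control (4.85%), with a median of -0.23. The count of 4 became 0 without Cre control replicate 2, Cre control replicate 3, cKO replicate 1 or cKO replicate 2 and 8 without Cre control replicate 1, and it was 0 with only the 6 libraries compared. Between the controls, 0 of the 12 passed in limma, 10 had an unadjusted p under 0.05, and their median was -0.21 while that of the 8 dopaminergic genes was 0.02. The summed log2 level of the pan-neuronal genes ran from 17.26 to 17.37 in the floxed control, 16.91 to 17.21 in the Cre control and 16.74 to 16.91 in the cKO. Cre control replicate 1, the lowest control for Th, Pitx3 and Slc18a2, was also the lowest control there. Of 10 neural progenitor genes, 7 were higher versus the floxed control (19.5% of all genes were), with a list median of 0.30. The Hes5 call versus the floxed control was lost in 1 of 9 fits that left out 1 library. Versus the Cre control 3 were higher (Sox2, Nes and Vim, beside 4.86% of all genes), with a list median of 0.23. Of these 3 calls, that of Vim was lost in 3 of the 9 fits, that of Sox2 in 2 and that of Nes in none. Fabp7 and Slc1a3 had log2 fold changes of -0.16 and -0.12 versus the floxed control and did not pass. The summed log2 level of the progenitor genes was between 16.58 and 16.64 in the floxed control, 16.60 and 16.71 in the Cre control and 16.80 and 16.90 in the cKO.

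The dopaminergic genes were therefore also expressed relative to the mean of the 12 pan-neuronal genes in each library, a scale on which the median of all genes shifted to 0.489 versus the floxed control and 0.233 versus the Cre control. Against the floxed control, Th then stood at 0.01 (95% interval -0.20 to 0.22, limma adjusted p = 0.935), Pitx3 at -0.04 (-0.27 to 0.19, limma adjusted p = 0.727) and Slc6a3 at 0.17 (-0.06 to 0.40, limma adjusted p = 0.148). Lmx1b, Ddc and Nr4a2 were higher on this scale, by 0.47 (limma adjusted p = 1.68e-04), 0.29 (limma adjusted p = 0.0186) and 0.25 (limma adjusted p = 0.0405). These 3 increases lay below the shift of the median gene, and 87.8% of all genes were higher on this scale. Against the Cre control, 0 of 8 passed in limma: Th was at -0.23 (-0.44 to -0.02, limma adjusted p = 0.0700), Pitx3 at -0.18 (-0.41 to 0.05, limma adjusted p = 0.166) and Slc6a3 at -0.15 (-0.38 to 0.09, limma adjusted p = 0.260). Of these, Th had an unadjusted 95% interval below 0. No difference between the decrease of Th, Pitx3 or Slc6a3 and that of the pan-neuronal mean passed in either comparison, which does not show that they moved alike.

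**Figure D4:**
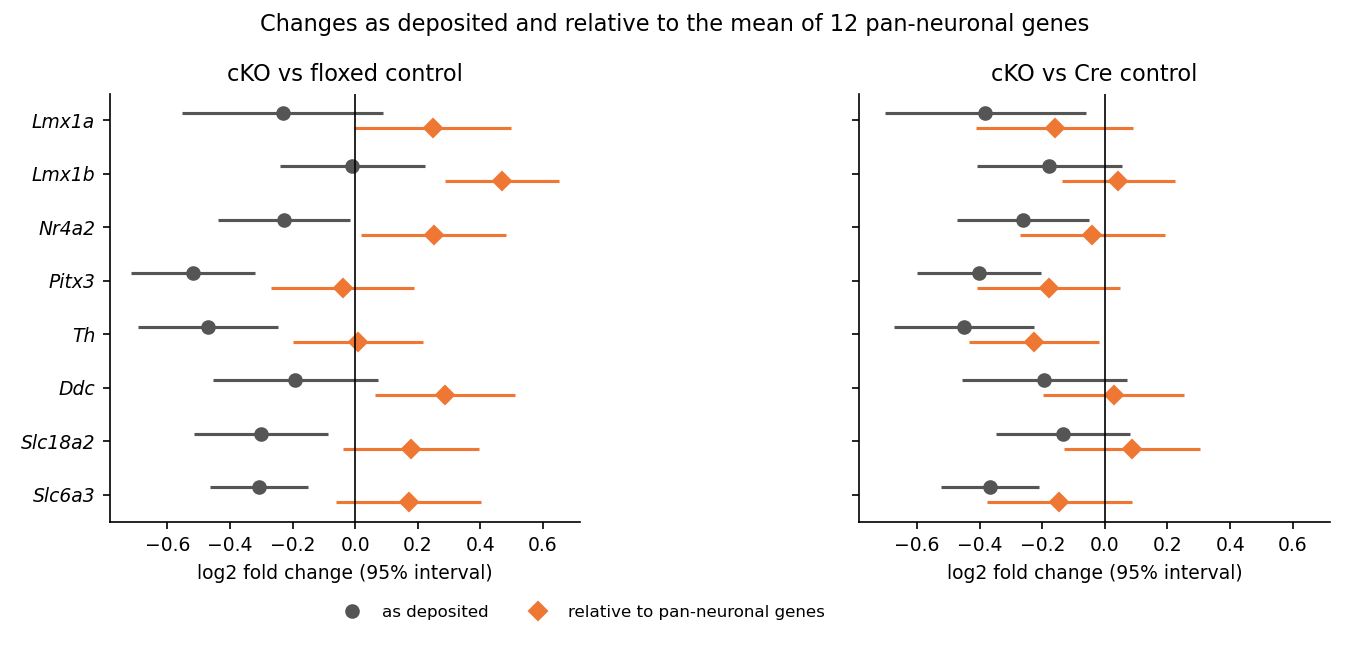
Log2 fold change in cKO (horizontal axis, with 95% intervals from limma) of each dopaminergic gene as deposited (circles) and relative to the mean of 12 pan-neuronal genes (diamonds), versus the floxed control (left) and the Cre control (right). Relative to these genes, Th moved from -0.47 to 0.01 versus the floxed control and from -0.45 to -0.23 versus the Cre control.

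Other monoaminergic neurons share members with the set. Serotonergic neurons use Ddc, Slc18a2 and Lmx1b. Of their 5 marker genes, 4 (Tph2, Slc6a4, Gata3 and Htr1a) were lower in cKO versus the floxed control (list median -0.29), where 18.8% of all genes were. Fev did not pass (-0.07, limma adjusted p = 0.503). Gata3, also a gene of the midbrain identity list, had the highest values of the 5. The Tph2 call was lost in 5 of 9 fits that left out 1 library, that of Slc6a4 in 2 and those of Gata3 and Htr1a in none. Versus the Cre control 1 gene was lower, Htr1a (list median -0.06), beside 4.85% of all genes. This Htr1a call versus the Cre control was lost in 8 of 9 fits that left out 1 library. The summed log2 level of the 5 markers was between 10.92 and 11.12 in the floxed control, 10.65 and 10.87 in the Cre control and 10.71 and 10.77 in the cKO. The Cre control and the cKO overlapped. Noradrenergic neurons share Th. Their defining enzyme gene Dbh reached 1 cpm in 1 of the 9 libraries, and its log2 values were between 4.46 and 4.84. The noradrenaline transporter gene Slc6a2 had log2 fold changes of -0.44 and -0.34 versus the floxed and the Cre control and did not pass (limma adjusted p = 0.0511 and 0.185). Of 4 hindbrain genes tested, 3 (Hoxa2, Hoxb2 and Hoxb3) were also lower in cKO versus the floxed control (18.8% of all genes were). Versus the Cre control 0 were in limma, and 0 had an unadjusted p under 0.05. In the Cre control Hoxa2, Hoxb2 and Hoxb3 had log2 fold changes of -0.87, -0.96 and -0.91 versus the floxed control. All 3 had an unadjusted p under 0.05 but did not pass (limma adjusted p from 0.113 to 0.166). The summed log2 level of the 6 hindbrain genes listed, of which Gbx2 had the highest values, was 8.80 to 9.29 in the floxed control, 8.46 to 8.86 in the Cre control and 8.62 to 8.74 in the cKO. The part of serotonergic, noradrenergic and hindbrain cells in the values of the shared genes was not tested.

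Tissue around the neural tube varied as well. Of 8 genes of meninges and head mesenchyme, 6 were higher in cKO versus the floxed control, where 19.5% of all genes were. Against the Cre control, 0 of the 8 passed in limma. Versus the floxed control, the calls of Col1a2 and Prrx1 were lost in 6 of 9 fits that left out 1 library. That of Foxc1 was lost in 5, that of Twist1 in 3 and those of Lum and Dcn in none. The summed log2 level of the 8 genes was 14.13 to 15.13 in the floxed control, 14.57 to 15.32 in the Cre control and 15.29 to 15.35 in the cKO. Of 6 erythroid genes, 4 were higher versus the floxed control (19.5% of all genes were) and 1, Hba-a1, versus the Cre control (4.86%). The first 4 calls were each lost in 3 to 6 of 9 fits that left out 1 library, and the last in 5. The summed log2 level of the erythroid genes was 16.62 to 17.33 in the floxed control and 16.87 to 17.09 in the Cre control. In the cKO it was 17.89, 17.14 and 18.18 in replicates 1, 2 and 3. cKO replicate 2, the lowest of the cKO for erythroid genes, was the highest of the cKO for Th, Ddc, Slc6a3, Pitx3 and Lmx1a. For Slc18a2 and Nr4a2 the highest was cKO replicate 1, and for Lmx1b cKO replicate 3. cKO replicate 3, the highest for erythroid genes, lay above replicate 1 for Th, Ddc, Slc6a3, Pitx3 and Lmx1b. It lay below replicate 1 for Slc18a2, Nr4a2 and Lmx1a. The part of these cells in the values of the dopaminergic genes was not tested.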

How the data were processed

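Libraries were made with NEBNext Ultra RNA and poly-A selection and sequenced on an Illumina HiSeq instrument. The submitters' processing notes name FastQC 0.10.1, kallisto 0.46.1, DESeq2 and mm10, without roles. The authors deposited 1 table of log2 values, normalized between libraries. The transformation is not given in the sources used here, and the shrinkage at low expression was read from the values. Columns were matched to samples by genotype and number.

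Of 27360 rows, 5764 had no gene name and 4840 were at 0 in all libraries. The filter kept named genes that reached 1 cpm (log2 4.73 to 4.78), from the linear values, in 3 or more libraries. Of repeated names the row with the highest mean was kept (118 rows dropped), leaving 14029 genes. limma 3.58.1 under R 4.3.3 fitted a mean per genotype over the 9 libraries together (lmFit, contrasts.fit and trended eBayes), two-sided, with Benjamini-Hochberg adjustment over all genes. Genes passed at an adjusted p under 0.05, and a DEG also had a fold change over 1.5. On simulated data with 200 genes changed by 1 on the log2 scale among 14029, 100% were recovered in both cKO comparisons and 99.5% between the controls. Of the genes left unchanged there, 15 were called versus the floxed control, 12 versus the Cre control and 14 between the controls. Recovery of smaller changes, such as those of the members, was not tested. Summed levels are log2 of summed linear values. Alternatives were other filters, scalings, sets of libraries and replicate blocks.

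The members and lists were chosen with earlier results of these data known. Named genes are the members, the genes of the lists, Gpr161, Wnt1 and the 5 genes closest to Th and to Lmx1a by Pearson correlation. Promoters came from RefSeq and positions from GENCODE. Amino acid sequences were not used here. Single values of some listed genes are not reported here.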

Additional observations from a re-analysis of the deposited data

How the results depend on the processing

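Each result was recomputed with other filters, scalings and libraries. With 1 library left out, 186 of 216 member fold changes kept their direction and side of the threshold, 17 lost significance, 4 gained it and 9 changed sign. In the other settings these were 160, 6, 5 and 15 of 186. The number of members passing was 4 versus floxed and 3 versus Cre controls. A filter at 5 cpm, which took Slc6a3 and Pitx3 out of the test, gave 2 and 1. Requiring a 1.5-fold change gave 0 and 0. Against the Cre control, centring on the pan-neuronal mean gave 0, fitting only the 6 libraries compared gave 1, an unadjusted p gave 5, and leaving out 1 library gave 0 to 6. Between the controls the main count was 0, and centring on the pan-neuronal mean gave 4.

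Of the wider dopaminergic list, 9 passed against the floxed control, with 5 at 5 cpm and 1 at 1.5-fold. Compared with the Cre control, 3 passed, with 5 after median centring, 8 unadjusted, 0 at 1.5-fold and 0 to 9 with 1 library left out. Between the controls it was 6 after pan-neuronal centring and 1 unadjusted. For the floor plate list against the floxed control, 2 became 1 without a filter, without a trend and after quantile normalization, 12 after pan-neuronal centring, 0 at 1.5-fold and 1 to 3 with 1 library left out. With the Cre control as reference, 0 became 2 with the replicate block, 5 after pan-neuronal centring, 1 with 6 libraries, 5 unadjusted and 0 to 4 with 1 library left out. Between the controls it was 13 after pan-neuronal centring and 2 unadjusted. For the pan-neuronal list against the floxed control, 12 became 2 after centring on its own mean and 2 at 1.5-fold. For the same list and the Cre control, 4 became 2 without a filter, 2 without a trend, 1 after pan-neuronal centring, 0 with 6 libraries, 9 unadjusted, 0 at 1.5-fold and 0 to 8 with 1 library left out. Between the controls, 0 became 1 after centring and 10 unadjusted. Beyond fewer genes or libraries, the cause was not tested.

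Centring on the pan-neuronal mean changed signs by its construction. Against the floxed control Th became 0.00853, Ddc 0.287, Slc18a2 0.177, Slc6a3 0.171, Nr4a2 0.25, Lmx1a 0.247 and Lmx1b 0.468. Against the Cre control Ddc became 0.0282, Slc18a2 0.0879 and Lmx1b 0.0435, and between the controls Th became 0.236, Slc18a2 0.0892 and Pitx3 0.139. Between the controls Ddc became -0.00404 after median centring and -0.00465 after quantile normalization. With 1 library left out, the signs that changed were those of Th (-0.0849 to 0.0778), Ddc (-0.0696 to 0.0699) and Nr4a2 (-0.0344 to 0.12) between the controls and of Lmx1b against the floxed control (-0.0454 to 0.0516).

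Same-numbered libraries were not treated as pairs: the labels give the numbers no shared origin, and 5 of 9 same-number correlations were over 0.1. Whether they mark a shared origin was not settled. Deviations of same-numbered libraries correlated between -0.0272 and 0.26 (median 0.1), those of other libraries between -0.282 and 0.161, and 7 of 9 libraries correlated best with their own number. With a replicate block, the call of Lmx1a against the Cre control was gained (-0.38, limma adjusted p = 0.0321), and no other member's call changed. Depth is unknown, so what it limits cannot be given.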
